A study of Mus musculus with 6 samples.

Results

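The genes examined here encode the proteins of the mitochondrial ribosome and were taken from RNA-seq libraries of gonadal white adipose tissue (gWAT), a visceral fat depot that lies next to the reproductive organs. They were chosen by symbol alone: *Mrpl* or *Mrps* followed by a number, the usual naming of mitochondrial ribosomal proteins of the large and the small subunit. This rule found 78 of the 19790 genes in the deposited table, 49 *Mrpl* and 29 *Mrps* genes, on 17 chromosomes. All 78 had enough counts to be tested, with 244 to 5727 counts per gene and library.

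The libraries came from 6 wild-type male C57BL/6 mice, of which 3 were fed a normal chow diet (NCD) and 3 a high-fat diet (HFD), both for 8 weeks. The labels place the start of feeding at an age of 6 weeks, while the methods place the start of HFD at 8 weeks. Each mouse gave 1 library of the whole fat pad, so that fewer cells of a type and less RNA per cell cannot be told apart. The p-values below set the difference between the diets against the spread between the mice of each diet.

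The mitochondrial ribosome translates the few messenger RNAs that mitochondrial DNA encodes, all of them for subunits of the respiratory chain and the ATP synthase. Its RNAs are made inside the organelle, whereas its proteins are encoded in the nucleus, made in the cytosol and imported. Some of these proteins take the place of a bacterial ribosomal protein, and others sit where the bacterial ribosome has none and are called here proteins without a bacterial counterpart. By this division 30 of the genes encode large subunit proteins with a bacterial counterpart and 21 encode large subunit proteins without one. The small subunit is represented by 16 genes with a bacterial counterpart and 10 without. *Mrps30* and *Mrps18a* belong to the large subunit in spite of their names. The remaining gene, *Mrps36*, carries the symbol of the family, but its product is a subunit of the 2-oxoglutarate dehydrogenase complex.

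1 library has to be described before the results. Depth lay between 49575113 and 66360046 counts per library, but 11 genes of seminal vesicle secretions took 58.6% of the counts of NCD replicate 1, 11.2% of those of NCD replicate 2 and 2.30% of those of NCD replicate 3, against almost none on HFD. The summed level of 12 epithelial genes was 1728 CPM in NCD replicate 1 and between 46.2 and 194 CPM in the other 5 mice. Epithelial RNA was not absent on HFD, where the sum reached 181 CPM, although *Cldn7*, *Grhl2* and *Elf3* were at 0 in every HFD-fed mouse. By edgeR's adjusted p, 6 of the 12 fell and 0 rose without NCD replicate 1 (1 and 0 with all mice). Without that library, 1 was higher at an unadjusted p under 0.05, and DESeq2 called 1 higher. CPM is the count of a gene relative to the depth of its library, taken after TMM scaling unless called unscaled, with factors of 0.496 for NCD replicate 1 and from 1.02 to 1.27 for the other libraries. The adipocyte markers *Adipoq* and *Plin1* were present in every mouse, with *Adipoq* at 532 CPM in NCD replicate 1 and between 1139 and 2695 CPM in the others. The comparison of the diets was therefore made with all 6 mice and without NCD replicate 1. Seminal vesicle RNA still differed between the diets in the 5 mice left, and its part in their differences was not tested.

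Most mitochondrial ribosomal protein genes were lower on HFD, and none passed the test in the upward direction. Values are given in the order of the replicate numbers 1, 2 and 3 of each diet. The family summed to 2128, 2741 and 2965 CPM on NCD and to 1988, 2071 and 2189 CPM on HFD. NCD replicates 2 and 3 were above every HFD-fed mouse, whereas NCD replicate 1 lay within the range of the HFD-fed mice. The mean was 2611 ± 433 CPM (SD, n = 3 mice) on NCD and 2083 ± 101 CPM (SD, n = 3 mice) on HFD, which differed by -20.2%, or -27.0% against NCD replicates 2 and 3.

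The order of the mice depended on what the counts were divided by. Relative to the total of each library, the family took 1054, 2800 and 3178 unscaled CPM on NCD and 2299, 2603 and 2770 unscaled CPM on HFD, so the HFD-fed mice fell between NCD replicate 1 and the other NCD-fed mice. With the seminal vesicle genes left out of the total, the NCD values were 2544, 3155 and 3253 unscaled CPM and the HFD values did not move, which made NCD replicate 1 lower than HFD replicates 2 and 3.

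**Figure D1:**
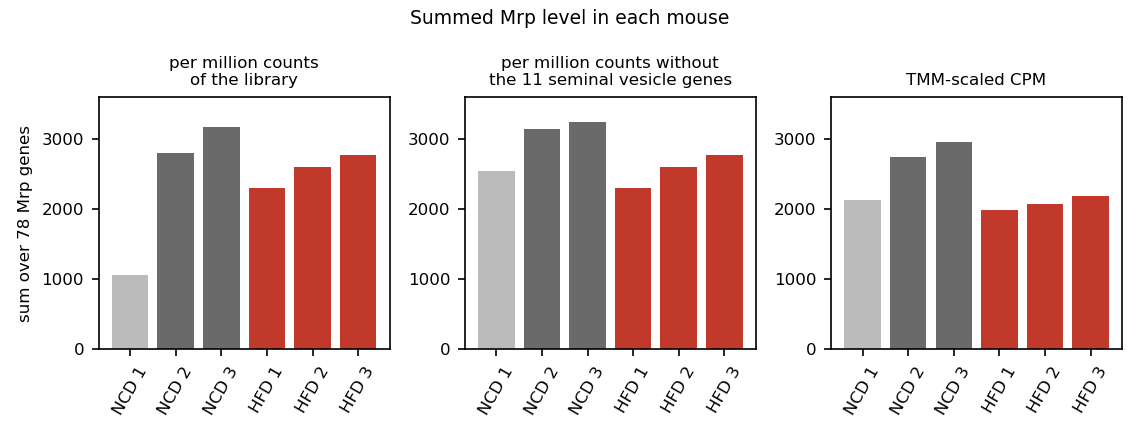
Bars give the sum over the 78 *Mrp* genes in each of the 6 mice (light grey, NCD replicate 1; dark grey, NCD replicates 2 and 3; red, HFD), as unscaled CPM of the library, as unscaled CPM without the 11 seminal vesicle genes, and as TMM-scaled CPM. NCD replicate 1 is the lowest bar at 1054 on the first scale and rises to 2544 and 2128 on the others, while NCD replicates 2 and 3 are above every HFD bar on each scale.

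With all 6 mice, 3 of the 78 genes fell on HFD by edgeR's quasi-likelihood test at a Benjamini-Hochberg adjusted p under 0.05 over all 15241 genes tested, and 0 rose. This is 3.85% of the family, against 1.9% of all genes that were lower and 5.58% that were higher by the same criterion. At an unadjusted p under 0.05, 19 were lower and 0 higher, and by DESeq2 10 were lower and 0 higher. Without NCD replicate 1, 32 of the 78 genes fell and 0 rose (52 and 0 at an unadjusted p under 0.05, 47 and 0 by DESeq2). By edgeR's adjusted p, the 32 genes were 41.0% of the family, against 10.1% of all 15510 genes tested that were lower and 10.7% that were higher. For the counts at an unadjusted p and by DESeq2, the shares of all genes were not computed. The 3 genes called with all mice were among the 32. Both counts rested on the mice included. With any mouse other than NCD replicate 1 left out, 0 genes were called by edgeR and between 5 and 8 were lower at an unadjusted p under 0.05. Leaving out a further mouse besides NCD replicate 1 gave 2 genes without NCD replicate 2, 0 without NCD replicate 3 (30 lower at an unadjusted p under 0.05), and 29, 8 and 18 without HFD replicates 1, 2 and 3, each lower on HFD.

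The sign of the change was more uniform than the calls. With all 6 mice the log2 fold change was below 0 in 68 of the 78 genes (87.2%), where 55% of all genes were below 0. Its median was -0.32 in the family, a level 19.6% lower on HFD, and -0.08 over all genes. Without NCD replicate 1 it was below 0 in 74 genes (94.9%), where 48.8% of all genes were below 0, with a median of -0.42 in the family, 25.5% lower, and 0.02 over all genes. Scaled by total counts alone, the median with all mice was 0.12 in the family and 0.45 over all genes, so the sign of the family's median turned while it remained lower than that of all genes.

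In 28 genes the mice of the 2 diets held separate ranges, each lower on HFD, when all mice were included. This was 35.9% of the family, against 18.7% of all genes without overlap in that direction and 20.5% in the other. Without NCD replicate 1 there were 64 such genes, again each lower on HFD, or 82.1% against 28.1% of all genes in that direction and 28.5% in the other.

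**Figure D2:**
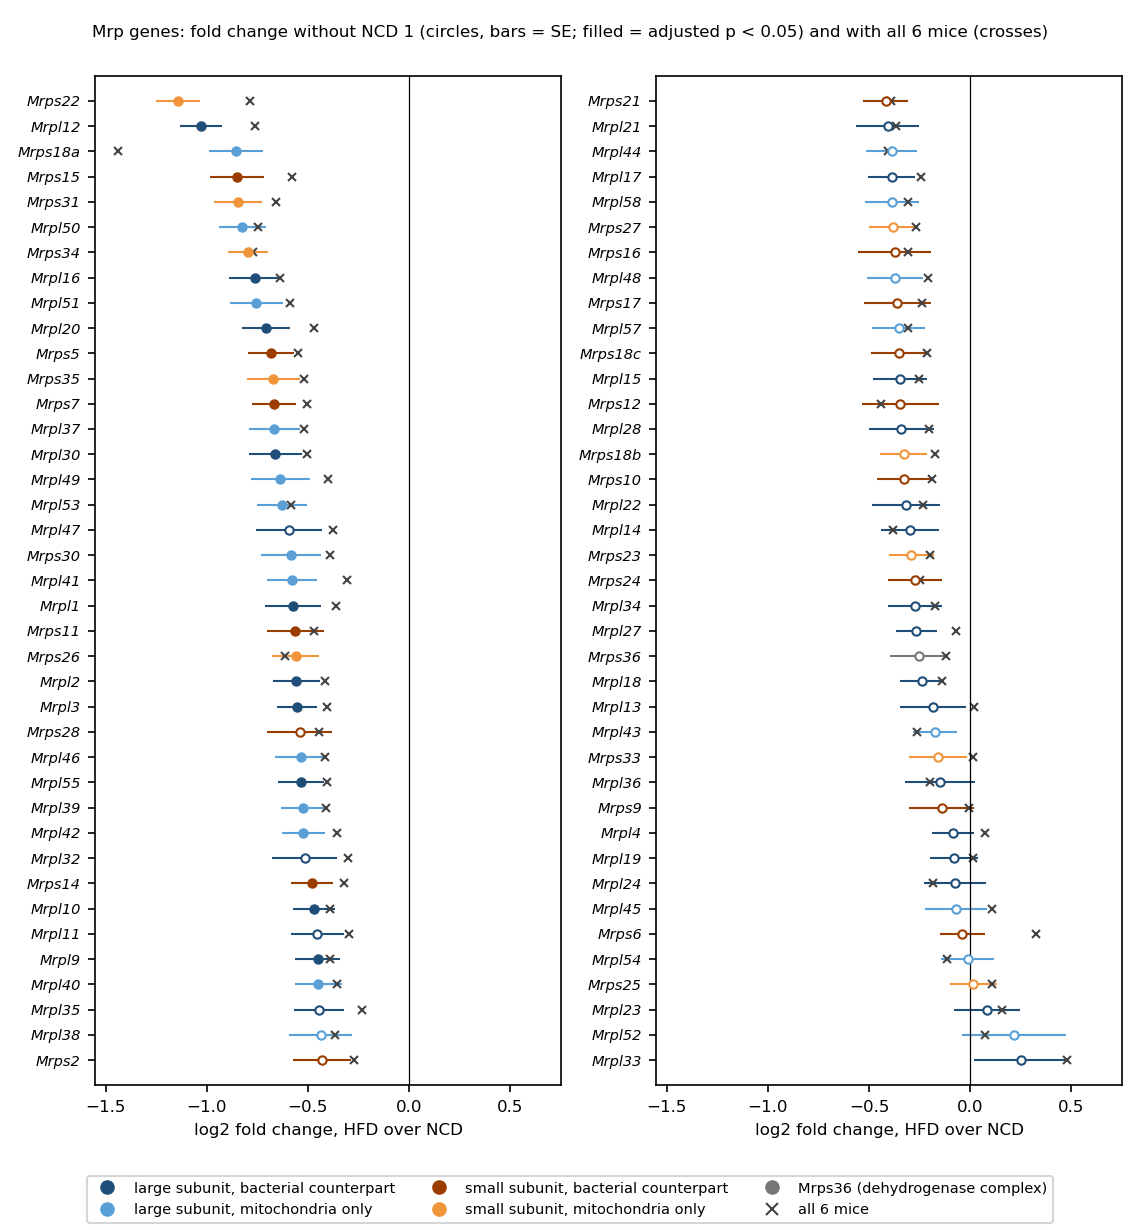
Each circle is the log2 fold change (HFD over NCD) of 1 of the 78 genes without NCD replicate 1, with its standard error as a bar, filled where the adjusted p was under 0.05 and coloured by subunit and origin, and each cross is the value with all 6 mice. Of the circles 74 lie below 0, from *Mrps22* at -1.14 to *Mrpl33* at 0.25, and the cross of *Mrps18a* at -1.44 is the farthest to the left of its circle.

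With all 6 mice the 3 genes that fell were each without a bacterial counterpart, 1 of 21 in the large and 2 of 10 in the small subunit, and 0 of 30 large and 0 of 16 small subunit genes with a counterpart were called by edgeR. At an unadjusted p under 0.05, 5 of these 30 and 4 of these 16 were lower, and DESeq2 called 2 in each lower. Without NCD replicate 1, where 10.1% of all genes were lower, 10 of 30 large subunit genes with a bacterial counterpart fell (median log2 fold change -0.40), as did 12 of 21 without one (median -0.52). Of the small subunit genes, 5 of 16 with a bacterial counterpart fell (median -0.40) and 5 of 10 without one (median -0.47). The differences between these classes were not tested. The summed level of the large subunit genes without a bacterial counterpart was 685, 758 and 825 CPM on NCD and 538, 563 and 578 CPM on HFD. The diets were separate with all mice included, though *Mrps18a* alone made up 118 of the 685 CPM in NCD replicate 1. In the small subunit genes with a bacterial counterpart the sums were 399, 565 and 612 CPM on NCD and 410, 432 and 458 CPM on HFD. NCD replicate 1 was lower than every HFD-fed mouse. The same held, barely, for the large subunit genes with a counterpart (808.8, 1100 and 1198 CPM on NCD, 809.2, 846 and 917 CPM on HFD). Small subunit genes without one summed to 222.6, 300 and 310 CPM on NCD and 213.7, 214 and 220.8 CPM on HFD, barely apart.

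*Mrps34* was the gene with the smallest adjusted p with all mice. It encodes a small subunit protein found only in mitochondria, which the small subunit needs for its stability, and lies on chromosome 17 (24895120 to 24896289, plus strand, GRCm38). It was at 36.6, 39.5 and 40.0 CPM on NCD and at 22.9, 22.6 and 22.5 CPM on HFD. The seminal vesicle-rich library was at the level of the other NCD-fed mice here. The log2 fold change was -0.77 (standard error, SE, 0.121, edgeR adjusted p = 0.0253), and -0.80 without NCD replicate 1 (edgeR adjusted p = 0.00851).

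*Mrpl50*, for a large subunit protein found only in mitochondria, was at 37.1, 43.3 and 47.7 CPM on NCD and at 27.7, 24.9 and 23.8 CPM on HFD. Its log2 fold change was -0.75 (SE 0.152, edgeR adjusted p = 0.0428). *Mrps26*, for another small subunit protein without a bacterial counterpart, was at 32.9, 31.0 and 30.2 CPM on NCD and at 19.1, 20.9 and 21.6 CPM on HFD, with a log2 fold change of -0.61 (SE 0.130, edgeR adjusted p = 0.0463). In both genes the mice of each diet lay close together and the diets were clearly apart. Neither of these genes, nor *Mrps34*, passed when any mouse other than NCD replicate 1 was left out, with log2 fold changes that stayed between -0.55 and -0.80 and adjusted p-values from 0.0767 to 0.175 (edgeR). *Mrpl50* and *Mrps26* also lost their calls without the filter on low counts (edgeR adjusted p = 0.0585 and 0.0629). With total counts the log2 fold changes of *Mrps34*, *Mrpl50* and *Mrps26* were -0.28, -0.28 and -0.085, and none passed.

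The largest falls without NCD replicate 1 were in genes that this library did not resolve. *Mrps22*, for a small subunit protein found only in mitochondria (chromosome 9, 98588730 to 98601679, minus strand), was at 9.96, 31.2 and 30.9 CPM on NCD and at 14.1, 13.5 and 14.2 CPM on HFD. NCD replicate 1 was lower than all other mice. The log2 fold change was -1.14 without this library (SE 0.110, edgeR adjusted p = 0.00642) and -0.79 with it (SE 0.429, edgeR adjusted p = 0.269).

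*Mrpl12* behaved alike. Its product forms the flexible stalk of the large subunit, which recruits translation factors, and it is also known to bind the mitochondrial RNA polymerase. The gene (chromosome 11, 120484637 to 120488754, plus strand) was at 45.6, 95.8 and 99.8 CPM on NCD and at 48.7, 44.7 and 49.0 CPM on HFD, so that NCD replicate 1 sat among the HFD-fed mice. The log2 fold change was -1.03 without that library (SE 0.106, edgeR adjusted p = 0.00667), and with it -0.76 (SE 0.307, edgeR adjusted p = 0.163). The stalk base is formed by the product of *Mrpl10*, which fell by 0.47 on the log2 scale without NCD replicate 1 (SE 0.102, edgeR adjusted p = 0.0295) and had -0.39 with all mice (edgeR adjusted p = 0.133). The ratio of *Mrpl12* to *Mrpl10* counts, which no scaling of the library can alter, was 0.910, 1.62 and 1.56 on NCD and 1.06, 1.04 and 1.13 on HFD. NCD replicate 1 was the lowest, and the diets overlapped (exact two-sided permutation test, p = 0.4).

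*Mrps31*, another small subunit gene without a bacterial counterpart, was at 15.2, 24.2 and 26.3 CPM on NCD and at 14.2, 14.2 and 13.3 CPM on HFD. It fell by 0.85 on the log2 scale without NCD replicate 1 (SE 0.119, edgeR adjusted p = 0.0106), and with all mice the adjusted p was 0.131. The other genes called lower without this library included *Mrps15*, *Mrpl16*, *Mrpl51* and *Mrpl20*, with log2 fold changes of -0.85, -0.76, -0.76 and -0.71, and none of these 4 passed with all mice.

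**Figure D3:**
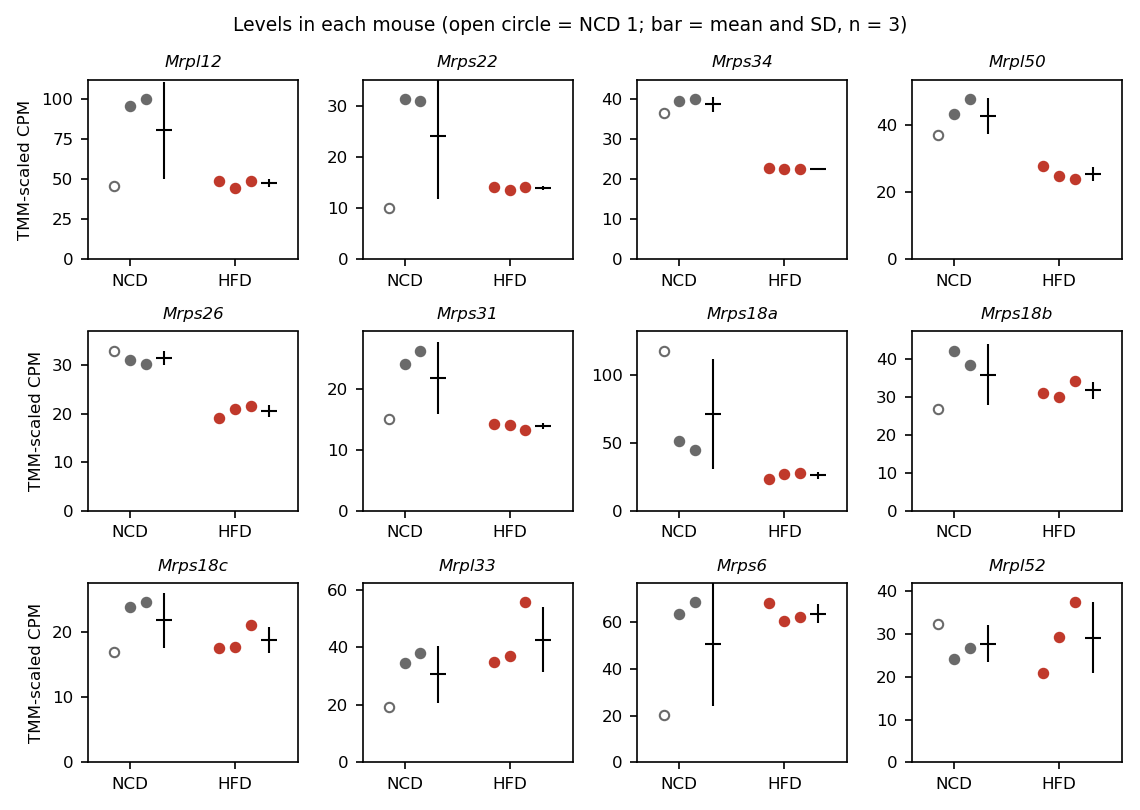
Points are the levels of 12 *Mrp* genes in each mouse as TMM-scaled CPM on linear axes from 0 (grey, NCD with replicate 1 open; red, HFD), and the bar beside each group is the mean with the SD of 3 mice. In *Mrps34*, *Mrpl50* and *Mrps26* the open circle sits with the other NCD-fed mice, in *Mrpl12* and *Mrps22* it sits at or below the HFD-fed mice, and in *Mrps18a* it is the highest point at 118 CPM.

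*Mrps18a*, *Mrps18b* and *Mrps18c* are 3 related genes, whose products resemble a single protein of the bacterial small subunit. That of *Mrps18c* takes its place, that of *Mrps18b* sits elsewhere in the small subunit and that of *Mrps18a* in the large subunit, so that *Mrps18a* and *Mrps18b* were counted among the genes without a counterpart. *Mrps18a* (chromosome 17, 46111004 to 46128908, plus strand) was at 118, 51.2 and 44.5 CPM on NCD and at 23.3, 27.2 and 28.0 CPM on HFD. The mice of the diets did not overlap, and the seminal vesicle-rich library was the highest by far. The log2 fold change was -1.44 with all mice (SE 0.394, edgeR adjusted p = 0.0760) and -0.85 without NCD replicate 1 (SE 0.135, edgeR adjusted p = 0.0136). *Mrps18b* was at 26.8, 42.1 and 38.4 CPM on NCD and at 31.0, 29.9 and 34.3 CPM on HFD, and *Mrps18c* was at 16.9, 23.8 and 24.5 CPM on NCD and at 17.5, 17.7 and 21.0 CPM on HFD. Both had their lowest value in NCD replicate 1, and neither passed the test with or without it.

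The ratio of *Mrps18a* to *Mrps18b* counts within a library was 4.38, 1.21 and 1.16 on NCD and 0.752, 0.908 and 0.818 on HFD. The diets did not overlap, with a mean difference of -1.15 on the log2 scale, or -0.53 against NCD replicates 2 and 3. The ratio of *Mrps18a* to *Mrps18c* counts was 6.97, 2.15 and 1.81 on NCD and 1.33, 1.53 and 1.34 on HFD, again without overlap. For each ratio p was 0.1 in the exact two-sided permutation test, the smallest value that 3 mice against 3 allow. These pairs and that of *Mrpl12* and *Mrpl10* were chosen after the values had been seen.

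A few genes were not lower on HFD. *Mrpl33*, for a small large subunit protein of bacterial descent, was at 19.3, 34.4 and 38.1 CPM on NCD and at 35.1, 37.1 and 55.7 CPM on HFD. HFD replicate 3 was the highest and NCD replicate 1 the lowest, and the other 4 mice were close together. Its log2 fold change of 0.48 with all mice (SE 0.314, edgeR adjusted p = 0.348) was 0.25 without NCD replicate 1 (SE 0.233). *Mrps6*, for a small subunit protein of bacterial descent, was at 20.3 CPM in NCD replicate 1 and between 60.4 and 68.4 CPM in the other 5 mice. Its log2 fold change was accordingly 0.32 with all mice and -0.04 without that library (SE 0.111).

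*Mrpl52*, for a large subunit protein found only in mitochondria, was at 32.4, 24.1 and 26.7 CPM on NCD and at 20.8, 29.2 and 37.4 CPM on HFD, so that the HFD-fed mice held both its lowest and its highest value. *Mrpl23* and *Mrpl45* encode proteins at the exit of the tunnel through which the new chain leaves the ribosome, where *Mrpl45* is known to anchor the ribosome to the inner membrane. *Mrpl23* was at 18.4, 21.4 and 23.5 CPM on NCD and at 20.4, 23.1 and 27.1 CPM on HFD. *Mrpl45* was at 19.3, 29.3 and 32.9 CPM on NCD and at 25.8, 28.8 and 33.3 CPM on HFD. The diets overlapped in these genes, and none passed the test. *Mrps25*, a small subunit gene without a bacterial counterpart, had a log2 fold change of 0.11 with all mice and 0.02 without NCD replicate 1.

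Of the genes singled out for their role, *Mrps30* fell by 0.58 on the log2 scale without NCD replicate 1 (SE 0.147, edgeR adjusted p = 0.0435) and was not called with all mice (edgeR adjusted p = 0.321). *Mrpl58* encodes a peptidyl-tRNA hydrolase that became part of the large subunit, and its log2 fold change was -0.39 without NCD replicate 1 (SE 0.132, edgeR adjusted p = 0.0905). *Mrps36*, the dehydrogenase subunit, had -0.25 (SE 0.141, edgeR adjusted p = 0.243), and neither of the latter passed with all mice.

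The library rich in seminal vesicle RNA differed from the other NCD libraries in a gene-specific way. Of the 78 genes, 68 were lower in it than in both other NCD-fed mice and 9 were higher. The log2 ratio of NCD replicate 1 to the mean of replicates 2 and 3 had a median of -0.49 and an SD of 0.427 over the genes, and it ran from -1.70 in *Mrps6* to 1.296 in *Mrps18a*. Adipocyte markers were low in the same library, at a summed 9215 CPM over 12 genes, against 38320 and 49710 CPM in NCD replicates 2 and 3. The part of the seminal vesicle, epithelial and adipocyte genes in these values was not tested. The median coefficient of variation of the *Mrp* genes was 19.7% over the 3 NCD-fed mice, 6.49% over NCD replicates 2 and 3 and 7.01% over the 3 HFD-fed mice, and over all genes it was 28.3%, 10.6% and 15.2%.

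Levels of different genes were compared per exon length as FPKM, which was computed here from TMM-scaled CPM. Over the 6 mice the *Mrp* genes averaged from 3.003 to 76.6 FPKM with a median of 19.99, and 65 of the 78 lay above the median of all tested genes with a length, which was 6.50 FPKM. The median was 20.2 FPKM in the large and 16.5 FPKM in the small subunit. *Mrpl33*, *Mrps6*, *Mrpl42* and *Mrps21* were the highest, with averages of 76.6, 67.6, 63.8 and 61.0 FPKM. Their order was not fixed: in the 3 NCD-fed mice *Mrps6* ranged from 24.0 to 80.8 FPKM and *Mrpl33* from 40.5 to 79.7 FPKM. *Mrpl47*, *Mrpl19* and *Mrps25* were the lowest, with averages of 3.003, 3.49 and 4.30 FPKM, and they have long annotated exons of 3364, 5000 and 6073 bases. Lengths took in all annotated exons, so the level of a gene whose long forms are not made in fat would be too low on this scale.

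The level of a gene said little about its change between the diets: Spearman's rho between the average FPKM and the log2 fold change without NCD replicate 1 was 0.10 across the 78 genes, which share the same 5 or 6 libraries. *Mrpl42*, for a large subunit protein found only in mitochondria, fell by 0.52 on the log2 scale without NCD replicate 1 (SE 0.107, edgeR adjusted p = 0.0257) and had -0.36 with all mice (edgeR adjusted p = 0.283). *Mrps21*, for a small subunit protein of bacterial descent, had a log2 fold change of -0.42 (SE 0.112, edgeR adjusted p = 0.0510) without that library and -0.39 with all mice (edgeR adjusted p = 0.110).

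**Figure D4:**
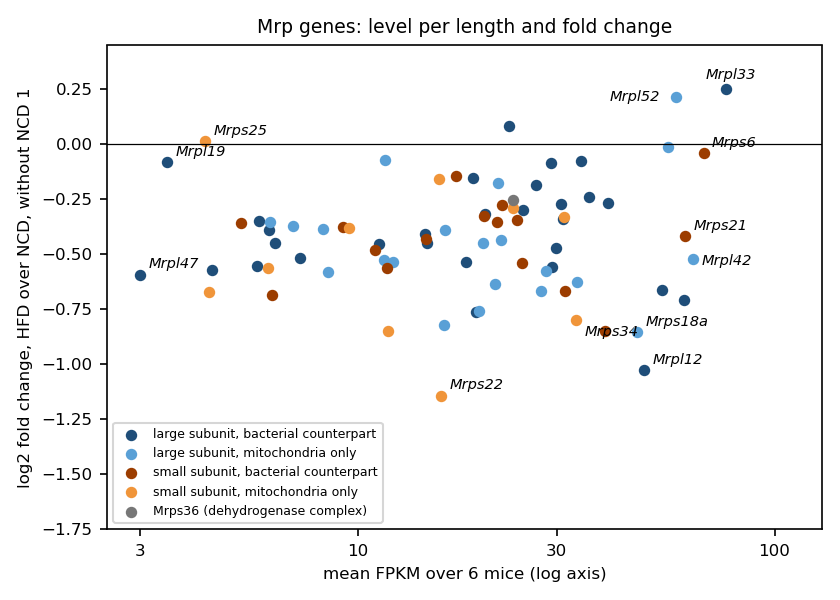
Each point is 1 of the 78 genes, with the average FPKM of the 6 mice on a log axis and the log2 fold change (HFD over NCD) without NCD replicate 1 on the other, coloured by subunit and origin. The points form a flat band around the median of -0.42, with *Mrpl33* at 76.6 FPKM above 0, and *Mrpl47* at 3.003 FPKM within the band.

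The share of a gene in the summed counts of the family leaves the scaling out. *Mrpl33* took 0.909%, 1.26% and 1.28% of the family on NCD and 1.76%, 1.79% and 2.55% on HFD. *Mrps18a* took 5.52%, 1.87% and 1.501% on NCD and 1.17%, 1.31% and 1.28% on HFD. Every HFD-fed mouse was above every NCD-fed mouse in the share of *Mrpl33* and below it in that of *Mrps18a*. Neither difference was tested. In all, 13 genes held a higher share in every HFD-fed mouse than in every NCD-fed mouse, and 10 a lower one. No rate to set these counts against was computed for shares, so neither count is shown to be unusual. In level rather than share, 18.7% of all genes were without overlap and lower on HFD, and 20.5% were without overlap and higher.

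The exons of 26 members overlap those of another gene, 5 on the same strand and 22 on the opposite strand, and no source used here states whether the counting used the strand. Among the 52 members without such an overlap, 23 fell without NCD replicate 1, with a median log2 fold change of -0.45, and 2 fell with all mice, with a median of -0.36. *Mrpl53*, one of the 32 genes that fell without NCD replicate 1, is overlapped over its whole exon length (100%) by the annotated protein-coding gene *Gm42688* on the same strand. *Mrps6* shares exons on its own strand with *Gm49711*, also annotated as protein-coding, over 36.1% of its exon length and with *Slc5a3*, a gene for an inositol transporter, over 18.8%. *Slc5a3* was at 42.9, 96.4 and 129 CPM on NCD and at 74.4, 123 and 91.7 CPM on HFD, and the levels of *Mrps6* and *Mrpl53* are uncertain because of these overlaps. Exons of *Mrps25* are covered over 58.2% of their length by those of *Nr2c2* on the opposite strand, those of *Mrps18b* over 59.1% by an antisense gene, and those of *Mrpl19* over 39.2% by *Gcfc2* on the opposite strand. *Mrpl33* shares 22.4% of its exon length with a transcript on its own strand.

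The promoters of the family were read from RefSeq on GRCm38.p6, as windows of 250 bases before to 50 bases after the annotated start, and 69 of the 78 genes had an entry. The windows were searched on both strands for the core letters of NRF1 (GCGCNTGCG), of ETS family factors such as GABP (CCGGAAGT) and of YY1 (AANATGGCG), factors known to act on nuclear genes for mitochondrial proteins. NRF1 letters stood in 18 windows (26.1%), against 13.7% of the 11962 tested genes with an entry and 11.7% of all 14900 genes with an entry. ETS letters stood in 12 (17.4%, against 8.13% and 6.8%) and YY1 letters in 11 (15.9%, against 5.18% and 4.33%). In all, 37 windows (53.6%) held at least 1 of the 3, against 24.1% of tested genes. The SP1 letters GGGCGG were found in 34 windows (49.3%, against 65.3% of tested genes) and CCAAT in 27 (39.1%, against 42.5%), while TATAAA and the E-box CACGTG were each found in 5 (7.25%, against 9.37% and 11.2%). Median GC content was 58.7% in the windows of the family and in all windows of the table.

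A match of letters is a description and does not show that a factor binds. Genes with and without a match were set side by side with no test. The median log2 fold change without NCD replicate 1 was -0.40 in genes with NRF1 letters and -0.45 in those without, -0.36 and -0.45 for ETS letters, and -0.45 and -0.42 for YY1 letters. Of the 30 genes with an entry that fell without NCD replicate 1, 7 had NRF1 letters, 4 ETS letters and 5 YY1 letters.

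The stretches below, from 150 bases before the start to 30 bases from the start on, show these letters in capitals for 4 genes that fell without NCD replicate 1 and for *Mrpl45* and *Mrpl33*, which did not pass the test. *Mrpl12* (chr11:120484487-120484666, plus strand) has NRF1 letters, *Mrps22* (chr9:98601650-98601829, minus strand) and *Mrpl33* (chr5:31613801-31613980, plus strand) ETS letters, and *Mrps18a* (chr17:46110854-46111033, plus strand) YY1 letters. *Mrps26* (chr2:130563607-130563786, plus strand) has ETS letters and a pair of overlapping NRF1 matches, each on the reverse strand, and *Mrpl45* (chr11:97315566-97315745, plus strand) has 3 NRF1 matches.
Mrpl12: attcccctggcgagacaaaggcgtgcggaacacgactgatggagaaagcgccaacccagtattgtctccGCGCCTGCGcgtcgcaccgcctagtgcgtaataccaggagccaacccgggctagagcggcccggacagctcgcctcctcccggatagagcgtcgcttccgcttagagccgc
Mrps22: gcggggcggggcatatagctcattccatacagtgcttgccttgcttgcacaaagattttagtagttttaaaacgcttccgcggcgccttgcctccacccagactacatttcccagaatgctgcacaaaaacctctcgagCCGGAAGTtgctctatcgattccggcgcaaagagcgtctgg
Mrps18a: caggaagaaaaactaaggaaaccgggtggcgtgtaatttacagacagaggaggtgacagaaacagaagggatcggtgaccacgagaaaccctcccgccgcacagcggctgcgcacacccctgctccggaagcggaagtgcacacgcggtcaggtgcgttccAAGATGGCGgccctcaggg
Mrps26: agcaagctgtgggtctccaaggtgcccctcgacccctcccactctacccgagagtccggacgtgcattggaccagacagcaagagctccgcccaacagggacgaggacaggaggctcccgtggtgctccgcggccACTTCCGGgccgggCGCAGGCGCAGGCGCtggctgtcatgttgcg
Mrpl45: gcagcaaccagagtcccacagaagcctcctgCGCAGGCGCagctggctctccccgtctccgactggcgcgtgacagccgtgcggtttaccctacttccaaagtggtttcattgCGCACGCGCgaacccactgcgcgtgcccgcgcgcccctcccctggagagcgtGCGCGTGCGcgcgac
Mrpl33: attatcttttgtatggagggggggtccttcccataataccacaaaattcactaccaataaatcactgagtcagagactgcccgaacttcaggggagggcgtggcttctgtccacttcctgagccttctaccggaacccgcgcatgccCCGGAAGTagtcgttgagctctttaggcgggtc

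The genes that work with the mitochondrial ribosome were read from lists, whose counts without NCD replicate 1 stand against 10.1% of all genes lower and 10.7% higher. Their counts with all mice stand against 1.9% lower and 5.58% higher. Of 5 ribosomal proteins with other symbols, 1 fell without NCD replicate 1, namely *Ptcd3*, a small subunit protein, by 1.01 on the log2 scale (SE 0.108, edgeR adjusted p = 0.00667), with -0.81 and an edgeR adjusted p of 0.0791 with all mice. The medians of the list were -0.29 with all mice and -0.34 without NCD replicate 1. *Ptcd3* was at 36.1, 56.3 and 63.5 CPM on NCD and at 30.5, 29.6 and 28.5 CPM on HFD. *Dap3*, a GTP-binding protein of the small subunit, had -0.34 without NCD replicate 1 (edgeR adjusted p = 0.0717).

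Of 15 genes tested for translation factors, messenger-binding factors and the insertase, 1 fell with all mice and 9 without NCD replicate 1. In this list 0 rose (medians -0.44 and -0.52). The 1 called with all mice was *Oxa1l*, the insertase that places new chains in the inner membrane. It was at 60.3, 58.1 and 58.0 CPM on NCD and at 38.5, 35.2 and 36.4 CPM on HFD. Its log2 fold change was -0.68 with all mice (SE 0.118, edgeR adjusted p = 0.0302). The elongation factors *Tufm* and *Gfm1* had log2 fold changes of -0.84 and -0.91 without NCD replicate 1 (edgeR adjusted p = 0.0112 and 0.00786) and -0.67 and -0.66 with all mice (edgeR adjusted p = 0.103 and 0.183).

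Of 26 ribosome assembly genes, 0 were called with all mice by edgeR (2 lower and 1 higher at an unadjusted p under 0.05, 3 lower by DESeq2) and 3 fell without NCD replicate 1: *Mpv17l2*, the GTPase *Noa1* and the ribosomal RNA methyltransferase *Mrm3*, with log2 fold changes of -0.85, -0.74 and -0.71 there. By edgeR's adjusted p, these 3 of 26 are a share close to the 10.1% of all genes that were lower. At an unadjusted p under 0.05, 12 of the 26 were lower and 0 higher without NCD replicate 1, and DESeq2 called 11 lower and 0 higher. The shares of all genes by these 2 criteria were not computed. The medians of the list were -0.30 with all mice and -0.37 without NCD replicate 1. Of 20 genes that charge mitochondrial tRNAs, 1 fell with all mice, the asparaginyl-tRNA synthetase *Nars2* (log2 fold change -0.97, SE 0.179, edgeR adjusted p = 0.0348), and 4 fell without NCD replicate 1 (medians -0.38 and -0.38). The leucyl-tRNA synthetase *Lars2* was at 23.2, 63.4 and 78.9 CPM on NCD and at 21.8, 20.2 and 18.4 CPM on HFD, and fell by 1.81 on the log2 scale without NCD replicate 1 (SE 0.142, edgeR adjusted p = 0.00544), with -1.45 and an edgeR adjusted p of 0.0910 with all mice.

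Of 15 genes that copy, transcribe or process mitochondrial DNA and its RNA, 2 fell with all mice and 7 without NCD replicate 1 (medians -0.40 and -0.41). The 2 were *Hsd17b10* and *Trmt10c*, which encode partners in the mitochondrial RNase P, with log2 fold changes of -1.01 and -0.65 (edgeR adjusted p = 0.0473 and 0.0477). The transcription factor *Tfam* had -0.39 without NCD replicate 1 (edgeR adjusted p = 0.0905) and -0.33 with all mice (edgeR adjusted p = 0.209). Of 9 regulators of mitochondrial genes, 2 fell without NCD replicate 1 and 0 with all mice (edgeR, 1 lower at an unadjusted p under 0.05 and 1 by DESeq2). Their median was -0.13 with all mice and 0.15 without NCD replicate 1, and so turned sign with that library. The 2 were *Ppargc1a*, the coactivator of mitochondrial biogenesis, with -1.999 (SE 0.442, edgeR adjusted p = 0.0309), and *Esrra*, a nuclear receptor, with -0.46 (edgeR adjusted p = 0.0387), and with all mice their adjusted p was 0.135 and 0.493 (edgeR). *Nrf1* and *Gabpa*, whose letters were sought in the promoters, had log2 fold changes of 0.21 and 0.15 (edgeR adjusted p = 0.266 and 0.448) without NCD replicate 1, and *Yy1* had -0.08.

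Beyond translation, 10 of 16 genes of import, matrix chaperones and other abundant mitochondrial proteins fell without NCD replicate 1 (0 with all mice by edgeR, 4 lower at an unadjusted p under 0.05 and 3 by DESeq2), among them *Timm50*, *Hspa9* and the citrate synthase gene *Cs*, with log2 fold changes of -1.12, -1.10 and -1.50 there. The medians of the list were -0.40 with all mice and -0.57 without NCD replicate 1. Of 82 nuclear genes for respiratory chain and ATP synthase subunits, 63 fell and 1 rose without NCD replicate 1, and 2 fell with all mice. Their medians were -0.76 and -0.59. The sum of the *Mrp* genes divided by that of these 82 genes was 0.283, 0.236 and 0.226 on NCD and 0.293, 0.317 and 0.336 on HFD, so that the *Mrp* genes were higher relative to them in every HFD-fed mouse. Of 83 proteins of the cytosolic ribosome, 0 passed edgeR's test in either direction with or without NCD replicate 1. At an unadjusted p under 0.05, 2 were lower in each comparison, and DESeq2 called 1 lower with all mice and 2 without NCD replicate 1. Their median was -0.08 with all mice and 0.14 without NCD replicate 1. The genes of mitochondrial DNA, whose messenger RNAs this ribosome translates, were sought by symbol. Of these symbols 0 were found in the deposited table, so these genes were not analysed.

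**Figure D5:**
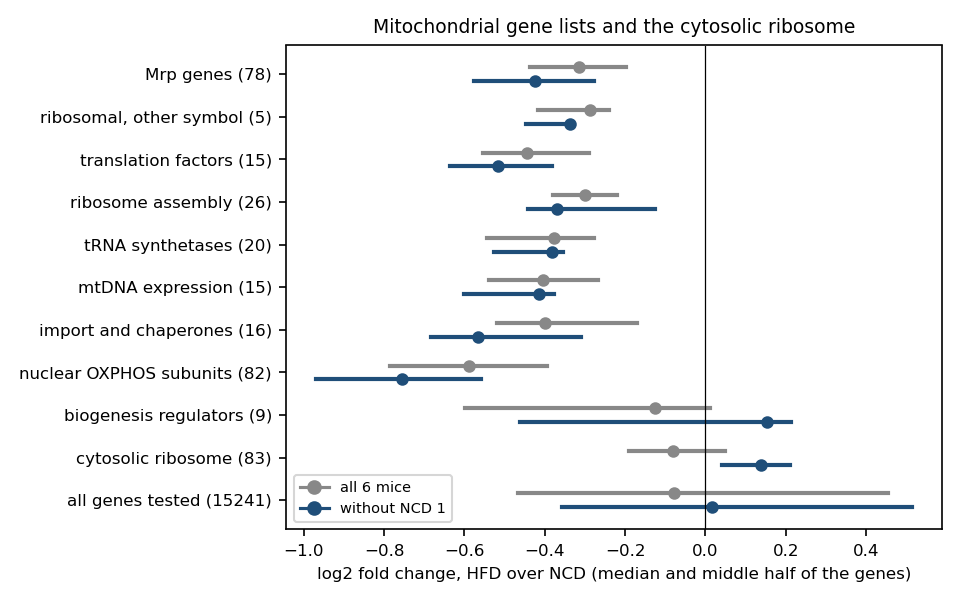
Points are the median log2 fold changes (HFD over NCD) of each gene list and bars run from the lower to the upper quartile of its genes, with all 6 mice in grey and without NCD replicate 1 in blue, and the number of genes stands in brackets. The *Mrp* genes at -0.32 and -0.42 lie among the other lists of mitochondrial gene expression, the nuclear respiratory chain subunits lie lower at -0.59 and -0.76, and the cytosolic ribosome lies at -0.08 and 0.14.

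Markers of the cell types of the fat pad moved with the diets as well. By edgeR's adjusted p, 10.1% of all genes were lower and 10.7% higher without NCD replicate 1. With all mice these shares were 1.9% and 5.58%. The 12 adipocyte genes summed to 9215, 38320 and 49710 CPM on NCD and to between 16410 and 23860 CPM on HFD, and 5 of the 12 fell without NCD replicate 1 (0 with all mice by edgeR, 3 lower at an unadjusted p under 0.05 and 3 by DESeq2). The 12 macrophage genes summed to between 816 and 1059 CPM on NCD and to between 2706 and 5846 CPM on HFD, and 11 of the 12 rose without NCD replicate 1 (6 with all mice). The 8 stromal genes summed to between 1320 and 2329 CPM on NCD and to between 2991 and 4668 CPM on HFD, with 2 called higher (1 with all mice). The 6 endothelial genes summed to between 240 and 812 CPM on NCD and to between 807 and 949 CPM on HFD, with 1 called higher (0 with all mice, by edgeR, by DESeq2 and at an unadjusted p under 0.05 in edgeR). No marker of these 4 lists was at 0 in any mouse. Relative to the adipocyte sum, the *Mrp* sum was 0.231, 0.0715 and 0.0597 on NCD and 0.0833, 0.0981 and 0.133 on HFD. The part of the cell types in the lower *Mrp* levels was not tested.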

How the data were processed

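RNA-seq libraries of gWAT from 3 NCD-fed and 3 HFD-fed wild-type mice were analysed. The deposited table holds the authors' read counts for each gene and mouse, without normalization and with NCBI gene identifiers. The submitters' processing notes name bcl2fastq 2.20.0, Trimmomatic, HISAT2 2.1.0, StringTie 1.3.4d, DESeq2 and the builds mm10 and GRCm38, without their roles. The labels name a stranded mRNA kit, and no source used here states the counting program or its strand setting. All columns were used (0 left out).

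Symbols and gene positions came from RefSeq on GRCm38.p6 (19742 of 19790 identifiers matched, the other 48 without a symbol) and exon lengths and overlaps from GENCODE vM21. Symbols had to match *Mrpl* or *Mrps* and a number, and 6 pseudogenes of this pattern have no row. The division into subunits, the gene lists and the markers are from general knowledge. The members and lists were chosen with earlier results of these data known.

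Counts were filtered with filterByExpr (minimum count 10, minimum total 15), then TMM-scaled and compared by the quasi-likelihood functions (glmQLFit, glmQLFTest) of edgeR 4.0.16 in R 4.3.3, with Benjamini-Hochberg adjustment over all genes and a threshold of 0.05. The filter, scaling and dispersion were fitted again without NCD replicate 1 (2 NCD, 3 HFD). The biological coefficient of variation was 0.424 with 6 mice and 0.288 with 5. Each SE was obtained from the size of the log2 fold change and the F statistic, as their quotient after taking the square root of F. The procedure was tested on simulated data, in which the mice of a diet shared the same mean levels. No library that stood apart, as NCD replicate 1 does, was simulated. Members had 244 or more counts in every library. Replicates differed by far more than sampling noise.

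Named *Mrp* genes are the 6 largest rises and falls and all genes called with 6 mice, the 6 smallest p-values in each direction without NCD replicate 1, the 4 highest and 3 lowest FPKM, and *Mrps18a*, *Mrps18b*, *Mrps18c*, *Mrps30*, *Mrps36*, *Mrpl12* and *Mrpl58* for their role. From the pathway lists, at most 4 genes called without NCD replicate 1 and *Ppargc1a*, *Nrf1*, *Gabpa*, *Esrra*, *Tfam* and *Tufm* could be named. *Mrpl10*, *Mrps15*, *Mrpl16*, *Mrpl51*, *Mrpl20*, *Mrpl53*, *Dap3* and *Yy1*, the overlapping genes *Slc5a3*, *Gm42688*, *Gm49711*, *Nr2c2* and *Gcfc2*, and the markers *Adipoq*, *Plin1*, *Cldn7*, *Grhl2* and *Elf3* were named after their values had been seen. Alternatives were no filter, median-of-ratios scaling, total counts, scaling without the seminal vesicle genes, DESeq2 1.42.0, a replicate block and each mouse left out. Python 3.11.15 and matplotlib 3.10.9 were used for the plots.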

Additional observations from a re-analysis of the deposited data

How the results depend on the processing

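The direction of the family held in most settings and its calls did not. With all 6 mice the count of *Mrp* genes called lower, 3, was 1 without the filter on low counts and 2 with scaling without the seminal vesicle genes. It was 0 with total counts, 10 with DESeq2 and 0 with the replicate block (1 and 9 lower at an unadjusted p under 0.05 with total counts and with the block). Leaving out a mouse gave from 0 (each mouse other than NCD replicate 1) to 32 (NCD replicate 1). Without NCD replicate 1 the count of 32 was 9 with total counts and, in fits chosen after seeing the data that left out a further mouse, from 0 to 29: 2 without NCD replicate 2, 0 without NCD replicate 3, 29, 8 and 18 without HFD replicates 1, 2 and 3. A fit that leaves 1 NCD library takes it to vary like the HFD libraries. No *Mrp* gene was called higher in any of these settings. The median log2 fold change of -0.32 was 0.12 with total counts, where the median of all genes was 0.45, and lay between -0.42 and -0.21 with a mouse left out. Without NCD replicate 1 the median of -0.42 was -0.21 with total counts, and 63 genes were below 0 in place of 74. With total counts the log2 fold changes of *Mrpl42*, *Mrpl47*, *Mrpl58*, *Mrps18b*, *Mrps18c*, *Mrps21*, *Mrps30* and *Mrps36* turned to 0.070, 0.035, 0.16, 0.26, 0.23, 0.097, 0.027 and 0.32. With a mouse left out, *Mrpl19* ranged from -0.082 to 0.090, *Mrpl45* from -0.070 to 0.29 and *Mrps6* from -0.040 to 0.61, each negative only without NCD replicate 1. *Mrpl52* ranged from -0.13 to 0.28, negative without HFD replicate 3 and, at -0.021, without NCD replicate 2. *Mrps36* ranged from -0.25 to 0.049, positive only without NCD replicate 3. The cause of these turns was not tested. Same-numbered mice had correlations of -0.06, -0.05 and 0.01 in their deviations from the diet means, and the other pairs lay between -0.054 and 0.0764. These values cannot settle whether the mice were paired. The deposited counts also give HFD replicate 3 another number. Of the settings of the 22 named genes, 218 kept direction and side of the threshold, 8 gained a call, 24 lost one and 14 changed sign. Each member had 244 or more counts in every library, and the part of depth in these values was not tested.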
